A study of Saccharomyces cerevisiae with 94 samples.

Results

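The genes that lie next to the 16 centromeres of the budding yeast *Saccharomyces cerevisiae* were followed through 1 synchronous cell cycle in which replication factors were or were not over-expressed. They were taken by systematic name, which numbers the genes of each chromosome arm outward from the centromere. The first 5 on each arm gave 156 listed genes, and 7 were left out (SSA1, HTB2, HTA2, CDC10, MCD1, ORC3 and CDC5), so that 149 of the 6444 genes in the table remained, 74 on left arms and 75 on right arms. The annotation placed 147 of them, at a median of 4.58 kb from the centromere to the middle of the gene (0.603 to 19.3 kb), and 139 lay within 10 kb. All 149 passed the filter on low values. The choice used position only and no expression value.

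A budding yeast centromere is a short stretch of DNA with fixed elements, CDEI, CDEII and CDEIII, on which a single nucleosome with the histone variant Cse4 and the kinetochore are built. The Ctf19 complex of the kinetochore recruits Dbf4, a subunit of the kinase that activates replication origins, and origins near centromeres fire early in S phase.

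Both strains were W303 MATa haploids that lack SML1, whose product inhibits ribonucleotide reductase, and both carry the ade2-1 and ura3-1 alleles, the his3-11, 15 and trp1-1 alleles, the leu2-3, 112 and can1-100 alleles and rad5-535. The *sml1Δ SSDDCS* strain (SSDDCS) over-expresses 6 limiting factors of origin firing from the galactose-inducible GAL1-10 promoter. They are integrated as pairs: SLD7 with CDC45 at leu2, SLD3 with DBF4 at his3, and SLD2 with DPB11 at trp1. The *sml1Δ* strain, with URA3 in place of SML1, is its control. The strains also differ in markers, as SSDDCS carries LEU2, HIS3 and TRP1 with these pairs and HphMX in place of SML1. Over the time points HIS3 differed by 4.08 to 5.73 on the log2 scale, SSDDCS minus *sml1Δ*, and TRP1 by 3.90 to 4.64. LEU2 differed by -2.36 to -0.48 and URA3 by -1.60 to -0.70. Whether these markers bear on other genes was not tested. Cultures grown in raffinose were held in G1 with the mating pheromone alpha factor, given galactose during the arrest and released into galactose medium. RNA was taken in G1 and at 5, 10, 15, 20, 25, 30, 35, 40, 45, 50 and 60 min after release, in 4 replicate cultures of each strain (3 libraries a strain at 25 min).

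The 94 libraries held 8119387 to 21677438 reads in genes, and replicate 1 of both strains was the deepest. As a check of the labels, the 6 over-expressed genes were higher in SSDDCS at all 12 time points, by 2.39 to 7.31 on the log2 scale. STE2, the receptor that marks MATa cells, had 16556 to 21673 normalized read counts in the G1 libraries, and STE3, the receptor of MATα cells, 8.40 to 25.4. Set against the mean profiles of its own strain, a library was most like its labelled time point in 44 of 94 cases and like a neighbouring one in 50, and in none like a time point further away.

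The DNA that defines the place of these genes is shown for 4 centromeres, the 2 with the fewest called neighbours at 30 min (CEN8 and CEN9, 1 of 10 each) and 2 with many (CEN6, 6 of 10, and CEN13, 6 of 9). Each is written from CDEI to CDEIII, with these 2 elements in capitals and CDEII between them in lower case, as annotated in RefSeq's R64 assembly.
CEN6, chrVI:148510-148627 (plus strand): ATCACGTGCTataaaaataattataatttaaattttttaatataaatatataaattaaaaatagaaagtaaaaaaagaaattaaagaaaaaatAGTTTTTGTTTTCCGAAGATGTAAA
CEN8, chrVIII:105586-105703 (minus strand): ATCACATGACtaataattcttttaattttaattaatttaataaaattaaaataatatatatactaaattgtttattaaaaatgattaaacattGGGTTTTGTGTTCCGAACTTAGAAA
CEN9, chrIX:355629-355745 (plus strand): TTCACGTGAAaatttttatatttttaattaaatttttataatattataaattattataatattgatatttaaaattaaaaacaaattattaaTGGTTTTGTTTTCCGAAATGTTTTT
CEN13, chrXIII:268031-268149 (plus strand): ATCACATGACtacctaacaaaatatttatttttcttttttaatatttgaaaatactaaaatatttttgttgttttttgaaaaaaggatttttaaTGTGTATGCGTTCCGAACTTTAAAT
CDEI is bound by Cbf1 and CDEIII by the CBF3 complex. The letters CCGAA stood in CDEIII of all 16 centromeres, and TCAC in CDEI of 15 of 16. CDEII was 76 to 85 bases long and 86.9% to 97.6% A or T, and CEN13 had the lowest share.

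Over the whole course, 10 of the 149 genes differed between the strains (6.71%), 9 higher and 1 lower in SSDDCS. Among all 6404 genes counted, 7.12% were called in either direction, 5.5% higher and 1.62% lower. A gene was called at an adjusted p under 0.01, here in limma on the mean log2 value of each of the 8 cultures. MSH4, VRL1, RCR1, DNL4, THI73, SWM2, NTH2, YCR001W and YAL004W rose in SSDDCS and RPB11 fell. The median difference of the 149 genes, SSDDCS minus *sml1Δ*, was -0.01 on the log2 scale, against -0.02 for the 6255 other genes. The share of genes next to centromeres that was called lay near the background.

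These 10 calls depended on single cultures. Without SSDDCS replicate 2 limma called none (39 had an unadjusted p under 0.05), while 2.26% of all genes were called. Leaving out SSDDCS replicate 1, 3 or 4 left 5, 6 or 3 calls (3.36%, 4.03% or 2.01%, all genes 3.58%, 4.76% or 2.65%). Leaving out *sml1Δ* replicate 4 left 4 (2.68%, all genes 3.67%). With all cultures 7.12% of all genes were called, so calls were lost outside the set as well. With the replicate number as a block the count was 9: THI73 (adjusted p = 0.0131), VRL1 (0.0106), NTH2 (0.0216) and YCR001W (0.0240) missed the threshold, and CIT3 (0.00769), YSP3 (0.00997) and YPR003C (0.00963) passed it. With quantile normalization MSH4, SWM2 and YCR001W missed it, with differences of 0.45, 0.20 and 0.14 (adjusted p = 0.0226, 0.203 and 0.337) in place of 0.74, 0.44 and 0.51, and 7 of the 10 were still called. RPB11 narrowly missed it in edgeR.

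The differences were spread unevenly over time. No gene next to a centromere was called in G1, at 5 min or at 10 min, when 0.515%, 0.281% and 0.203% of all genes were called. At an unadjusted p under 0.05 in limma, 2, 5 and 12 of the 149 passed at these times, and edgeR and DESeq2 on the recovered reads also called 0. At 15 min 5 genes were called (3.36%, all genes 2.72%). The count was 26 at 20 min (17.4%, all genes 17.9%) and 33 at 25 min (22.1%, all genes 21.5%). It was highest at 30 min, with 52 (34.9%, all genes 31.2%), and then 47 at 35 min (31.5%, all genes 27.4%) and 30 at 40 min (20.1%, all genes 19.7%). At 45 min it was 22 (14.8%, all genes 13.4%), at 50 min 10 (6.71%, all genes 9.06%) and at 60 min 4 (2.68%, all genes 5.2%). Whether the share of genes next to centromeres differs from that of all genes was not tested at any time point. With the replicate block the counts at 15, 45, 50 and 60 min were 10, 38, 19 and 7, and the shares of all genes 6.46%, 21%, 14% and 8.49%.

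**Figure D1:**
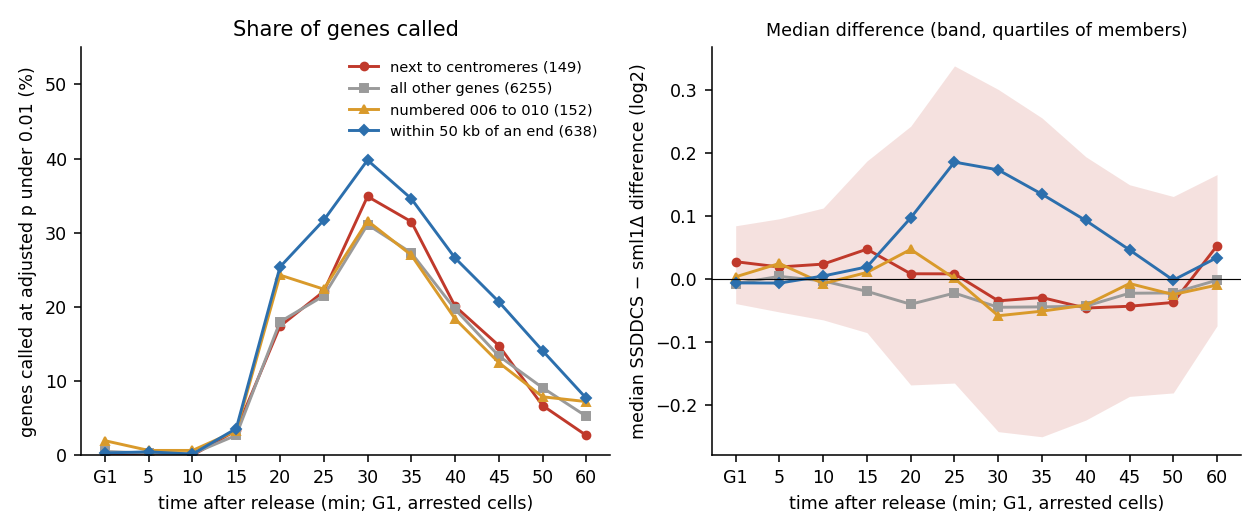
Left, the percentage of genes called at each time point; right, the median difference between SSDDCS and sml1Δ (log2), for the 149 genes next to centromeres (red circles, band between their quartiles), all other genes (gray squares), the genes numbered 006 to 010 on each arm (orange triangles) and genes within 50 kb of a chromosome end (blue diamonds). The red curve peaks at 34.9% at 30 min, beside 31.1% for all other genes, and its median runs from -0.05 to 0.05 over the 12 time points.

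Summed over the 12 time points there were 229 calls, 147 of them higher in SSDDCS, in 64 different genes. These 64 were 43% of the genes next to centromeres, and 43.3% of all genes were called at least once. No gene was called in both directions. VRL1 was called most often, at 8 time points, and 18 genes were called at 5 or more. Of the 52 genes called at 30 min, 51 had their largest difference between 20 and 40 min.

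In 39 of the 149 genes the difference between the strains was not constant over time by a limma F-test against the G1 difference (26.2%, all genes 22.2%). Of these, 34 were also called at 30 min.

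At 30 min, 32 genes next to centromeres rose (16.9% of all genes did) and 20 fell (14.3% of all genes). Those that rose include MSH4, THI73, CIT3 and NTH2, each more than 2-fold, and those that fell include RPB11, VTC2, NOP16, DEG1 and LOC1, none by 2-fold. With libraries scaled to equal totals the split was 35 higher and 11 lower, and that of all genes 1180 higher and 634 lower, in place of 1083 and 915. With the replicate block it was 37 and 29, and that of all genes 1281 and 1269. Changes of at least 2-fold were called in 7 genes (4.7%), all of them higher in SSDDCS. Among all genes 400 had such a call (6.25%), and 389 of these were also higher. The median difference was -0.03 for genes next to centromeres and -0.04 for all other genes. The next 5 genes outward on each arm had a median of -0.06, with 48 of 152 called (31.6%). Genes in the outer 50 kb of chromosomes had a median of 0.17, with 254 of 638 called (39.8%).

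The genes of DNA repair, recombination and meiosis in the set include 2 of the strongest. Of 5 on the list, 2 rose at 30 min (40%, all genes 16.9%) and none fell (all genes 14.3%). MSH4 (YFL003C, chromosome VI, 134521 to 137157), a MutS homolog that stabilizes meiotic crossovers and has no mismatch repair role, is normally quiet in mitotic cells. It had 129, 159, 115 and 156 normalized read counts in SSDDCS libraries at 30 min, against 53.5, 50.2, 61.2 and 46.8 in *sml1Δ* libraries. Every SSDDCS library was above every *sml1Δ* library, and the difference was 1.38 (SE 0.18, adjusted p = 2.1e-09). With quantile normalization it was 0.91. MSH4 was called at each time point between 20 and 50 min.

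DNL4 (YOR005C, chromosome XV, 334509 to 337343), the DNA ligase of non-homologous end joining, had 563, 572, 615 and 670 normalized read counts in SSDDCS at 30 min and 300.4, 364, 396 and 350 in *sml1Δ*. The libraries did not overlap, and the difference was 0.78 (SE 0.08, adjusted p = 5.87e-12). It was already 0.54 at 15 min, when DNL4 was 1 of the 5 genes called. The other 3 on the list were not called at 30 min: SPO75 differed by 0.33 (adjusted p = 0.0159; with the replicate block 0.00199), MPH1 by 0.16 and RAD57 by -0.12.

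**Figure D2:**
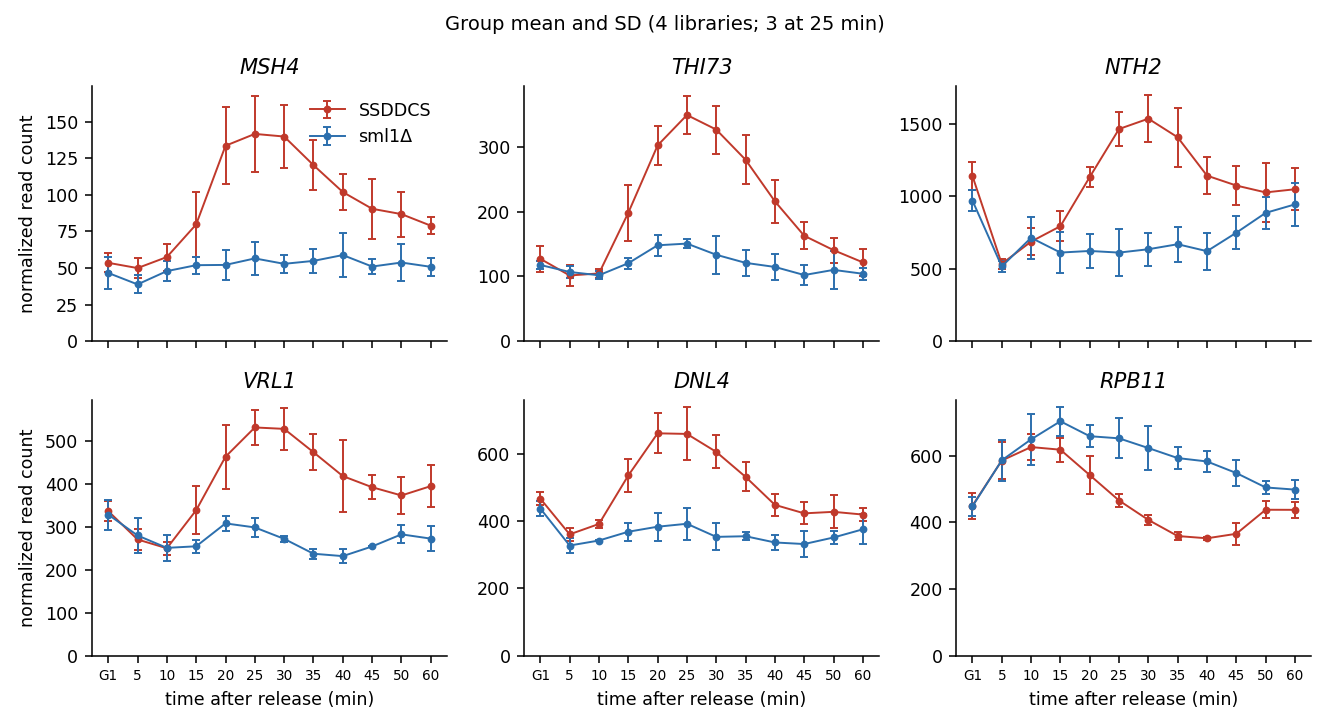
Normalized read count (group mean, bars SD, 4 libraries or 3 at 25 min) against time after release in SSDDCS (red) and sml1Δ (blue) for 6 genes called over the course. The strains lie together up to 10 min; MSH4, THI73, NTH2, VRL1 and DNL4 then run higher in SSDDCS, and RPB11 runs lower.

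Of the 12 genes of metabolism, transport and stress, 6 rose at 30 min (THI73, NTH2, LSP1, NTH1, YPR003C and GLO1), none fell and 6 were not called. Of all genes, 16.9% rose and 14.3% fell at this time, and the median of the list was 0.50 beside -0.04 for all genes. THI73 (YLR004C, chromosome XII, 157934 to 159505), a membrane permease of the thiamine regulon, had 370, 309, 285 and 342 normalized read counts in SSDDCS at 30 min and 109, 138, 173 and 115 in *sml1Δ*. The strains did not overlap (difference 1.30, SE 0.15, adjusted p = 2.52e-11). Over the course its culture means were 198, 204, 161 and 194 in SSDDCS and 106, 126, 127 and 107 in *sml1Δ*.

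NTH2 and NTH1 are paralogs that encode neutral trehalase, which breaks down the storage sugar trehalose, and each is the first gene on the right arm of its chromosome. NTH2 (YBR001C, chromosome II, 238941 to 241283) had 1583, 1640, 1292 and 1628 normalized read counts in SSDDCS at 30 min, against 548, 740, 729 and 525 in *sml1Δ*. Its difference was 1.28 (SE 0.15, adjusted p = 1.61e-10). NTH1 (YDR001C, chromosome IV, 450220 to 452475) had 1737, 2418, 1526 and 2042 in SSDDCS and 709, 1294, 1250 and 829 in *sml1Δ*, a difference of 0.95 (adjusted p = 0.00137). Both paralogs were higher in every SSDDCS library. The paralogs RCR1 and RCR2, also beside CEN2 and CEN4, are membrane proteins that give resistance to Congo red. They differed by 1.09 and 0.37 and were both called. RCR1 (YBR005W, chromosome II, 245906 to 246547) had 384, 416, 297 and 454 in SSDDCS and 160, 189, 176 and 194 in *sml1Δ*.

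All 3 citrate synthases of yeast lie next to a centromere. CIT3 (YPR001W, chromosome XVI, 556377 to 557837), the mitochondrial enzyme that also makes methylcitrate, had 298, 521, 376 and 326 normalized read counts in SSDDCS at 30 min, against 122, 177, 205 and 117 in *sml1Δ*. Its difference was 1.29 (SE 0.34, adjusted p = 0.00141), and no libraries overlapped. CIT2, the peroxisomal enzyme, differed by -0.44 at 30 min and by -0.66 over the course (adjusted p = 0.0951). CIT1, the main mitochondrial enzyme, differed by -0.22 at 30 min. Neither was called, so of the 3 only CIT3 changed by this test, and the differences between paralogs were not tested. In the list of mitochondrial metabolism as a whole, 2 of 12 rose at 30 min (CIT3 and PET8) and 1 fell (AIM45). These were 16.7% and 8.33%, beside 16.9% and 14.3% of all genes.

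**Figure D3:**
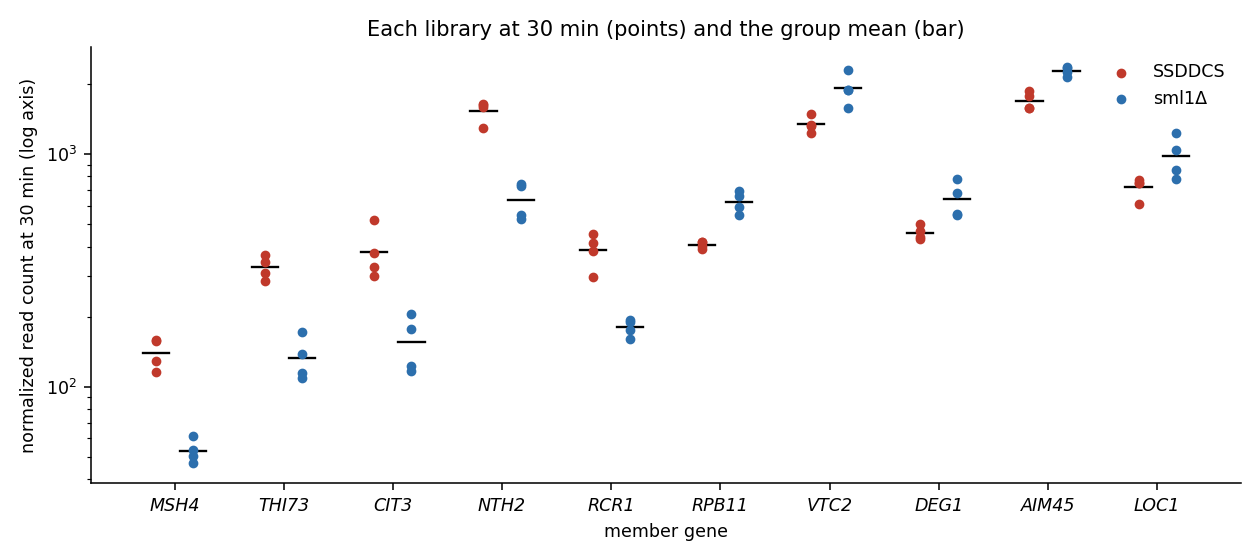
Normalized read count of each library at 30 min (log axis; points are libraries, bars group means) in SSDDCS (red, left of each pair) and sml1Δ (blue, right of each pair) for the 5 genes of each sign with the largest called difference among those whose libraries do not overlap. All 5 genes that rose differ by more than 2-fold, and none of the 5 that fell does.

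Of the 10 ribosome biogenesis genes, 2 fell at 30 min (20% beside 14.3% of all genes), NOP16 and LOC1, and 8 were not called. All 10 differences were negative, from -0.56 to -0.20 with a median of -0.37. Of all genes, 45.2% had a difference above 0 at 30 min. NOP16 (YER002W), a 60S assembly factor, had 1041, 1103, 1362 and 1132 normalized read counts in SSDDCS and 1705, 1297, 1372 and 2172 in *sml1Δ*, and the strains overlapped. LOC1 (YFR001W), which acts in 60S assembly and in ASH1 mRNA localization, had 610, 749, 771 and 748 in SSDDCS and 1035, 856, 780.3 and 1229 in *sml1Δ* (difference -0.42, SE 0.13, adjusted p = 0.00455). UTP23, of the small subunit processome, had the most negative difference, -0.56, and was not called (adjusted p = 0.0204; with the replicate block 0.00718). In *sml1Δ* UTP23 was 1070 and 1093 in replicates 1 and 4 and 690.5 and 610 in replicates 2 and 3. Over the course the *sml1Δ* culture means of replicates 1 and 4 lay above those of 2 and 3 in all 10 genes. UTP20 had 2109, 1397, 1309 and 1817 in replicates 1 to 4. The genes of the list thus varied together between cultures and are not 10 independent results. All 10 stayed below 0 with equal library totals and with quantile normalization, where none was called. Over the course the list had a median of -0.07 and no call.

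The 4 mitochondrial ribosome genes were also all below 0 at 30 min, from -0.54 (MRP4) to -0.36, and none was called. In all 4 the *sml1Δ* culture means over the course were higher in replicates 2 and 3 than in 1 and 4. MRP7 had 1417, 2308, 2270 and 1845 in replicates 1 to 4. Over the course MRP4 differed by -0.39 and MRP7 by -0.37 (adjusted p = 0.0695 and 0.164). MRP4 overlaps the dubious gene YHL005C, so reads of the pair may have been shared. None of the 3 genes of the ribosome and translation list was called at 30 min, and over the course RPL14B, a protein of the large subunit, differed by -0.06 and DOM34, which acts in the rescue of stalled ribosomes, by -0.01.

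RPB11 (YOL005C, chromosome XV, 315813 to 316175), a subunit of the RNA polymerase II core, was the only gene called lower over the course. It had 420, 402, 389 and 419 normalized read counts in SSDDCS at 30 min, against 661, 548, 593 and 692 in *sml1Δ*. The difference was -0.61 (SE 0.08, adjusted p = 5.38e-10), and it reached -0.72 at 40 min. Culture means over the course were 470, 452, 467 and 496 in SSDDCS and 590, 559.7, 556 and 622 in *sml1Δ*, with no overlap. Of the 9 genes for transcription factors and polymerase subunits, 3 fell at 30 min (RPB11, TAF4 and TFG2) and 1 rose (MAF1, the repressor of RNA polymerase III). These were 33.3% and 11.1%, beside 14.3% and 16.9% of all genes. The calls of TAF4 and TFG2 were lost with equal library totals (adjusted p = 0.0106 and 0.0165) and with quantile normalization (0.0276 and 0.0153). SSL1, a TFIIH subunit, differed by -0.16 at 30 min (adjusted p = 0.0249; with the replicate block 0.00986).

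Among 17 genes of vesicle traffic and the vacuole, 2 rose at 30 min and 4 fell, or 7 with the replicate block and 2 with equal library totals or quantile normalization. In the main fit these were 11.8% and 23.5%, beside 16.9% and 14.3% of all genes. VTC2 (YFL004W, chromosome VI, 131810 to 134296), a subunit of the vacuolar polyphosphate polymerase, had 1314, 1489, 1330 and 1231 normalized read counts in SSDDCS and 2298, 1888, 1576 and 1885 in *sml1Δ* (difference -0.50, SE 0.11, adjusted p = 1.19e-04). It was called lower at each time point between 25 and 60 min, and over the course missed the threshold (-0.36, adjusted p = 0.0205). VAB2, of the endosomal BLOC-1 complex, differed by 0.71 at 30 min and was called. VTC2 and MSH4 are neighbours on chromosome VI whose 3' ends face each other, and they moved in opposite directions.

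Of 7 chromatin genes, 2 rose at 30 min (28.6%, all genes 16.9%) and none fell (all genes 14.3%). SWD1, a subunit of the COMPASS histone H3 methyltransferase, differed by 0.41 and HAT1, the type B histone acetyltransferase, by 0.36. Of 16 genes of glycosylation, lipids and sterols, 3 rose and 3 fell (18.8% each). Within that list MNN1, a Golgi mannosyltransferase, and OSH6, a lipid transfer protein, had the largest differences over the course (-0.28 and 0.21) and were not called at 30 min. MNN1 had the lowest difference over the course among the 30 genes numbered 001, and CIT3 the highest.

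The mRNA processing and export list had 1 gene of 6 higher at 30 min and 1 lower (16.7% each, all genes 16.9% and 14.3%). SWM2 (YNR004W), which acts in the capping of small nuclear RNAs, had 129, 136, 147 and 165 normalized read counts in SSDDCS at 30 min and 115, 75.8, 80.2 and 115 in *sml1Δ* (difference 0.60, adjusted p = 0.00113; with quantile normalization 0.453). HRB1, an mRNA export adaptor, differed by -0.31 and was called. Of the 2 nuclear pore genes, NIC96 fell by 0.23 at 30 min (adjusted p = 0.00966; 0.0407 with equal library totals, 0.0980 with quantile normalization and 0.0269 in edgeR), while NUP60 differed by 0.00 over the course and was not called at any time.

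In the pheromone response and cell cycle list, 1 of 5 genes was called at 30 min (20%, all genes 31.2%). SAG1, the alpha-agglutinin of MATα cells, was higher by 0.57. GPA1, the alpha subunit of the G protein that couples to the pheromone receptor, differed by -0.22. In the list of proteasome, ubiquitin and chaperone genes, 2 of 8 rose and 2 fell (25% each, all genes 16.9% and 14.3%). With equal library totals none of the 8 was called lower, and with quantile normalization 1 rose and 1 fell. ULA1, of the enzyme that activates the ubiquitin-like protein Rub1, differed by 0.61, and DJP1, a J-protein of peroxisome import, by -0.42. DEG1 (YFL001W), a tRNA pseudouridine synthase in none of the lists, had 438, 469, 498 and 429 normalized read counts in SSDDCS at 30 min and 682, 550, 549 and 778 in *sml1Δ* (difference -0.47, adjusted p = 2.25e-04). AIM45, the homolog of an electron transfer flavoprotein subunit, had 1770, 1578, 1856 and 1572 in SSDDCS and 2358, 2347, 2138 and 2255 in *sml1Δ* (difference -0.43, adjusted p = 1.87e-04).

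Another 2 of the 10 genes called over the course have no known function. YCR001W (chromosome III, 115685 to 115999) had only 62.8, 73.0, 56.6 and 61.8 normalized read counts in SSDDCS at 30 min and 31.4, 23.5, 43.4 and 24.5 in *sml1Δ* (adjusted p = 8.31e-06; with quantile normalization 0.0880). YAL004W is a dubious open reading frame on the strand opposite SSA1, a heat shock chaperone gene that was left out of the set. Over the course YAL004W differed by 0.58 and SSA1 by 0.58, and at 30 min by 0.78 and 0.75. The counting is not stated to use strand, so reads of the pair cannot be told apart.

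Distance from the centromere within the set did not order the differences in a simple way. Of the genes numbered 001 to 005, 10 of 30, 5 of 30, 9 of 29, 17 of 30 and 11 of 30 were called at 30 min. The gene with the number 002 was thus called least often, and that with 004 most often. On left arms 23 of 74 genes were called and on right arms 29 of 75. Of all genes, 31.2% were called at 30 min. Over all placed genes, the share called at 30 min was 28.7% within 5 kb of a centromere, 33% between 5 and 10 kb, 34.4% between 10 and 20 kb and 35.1% between 20 and 50 kb. It was 32.4% between 50 and 100 kb, 31.1% between 100 and 200 kb, 30% between 200 and 400 kb and 33.8% beyond 400 kb. Over the course these 8 shares were 3.45%, 6.82%, 11.9%, 8.78%, 7.15%, 7.1%, 6.41% and 7.46%. The first of these bins holds 87 genes and the second 88.

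**Figure D4:**
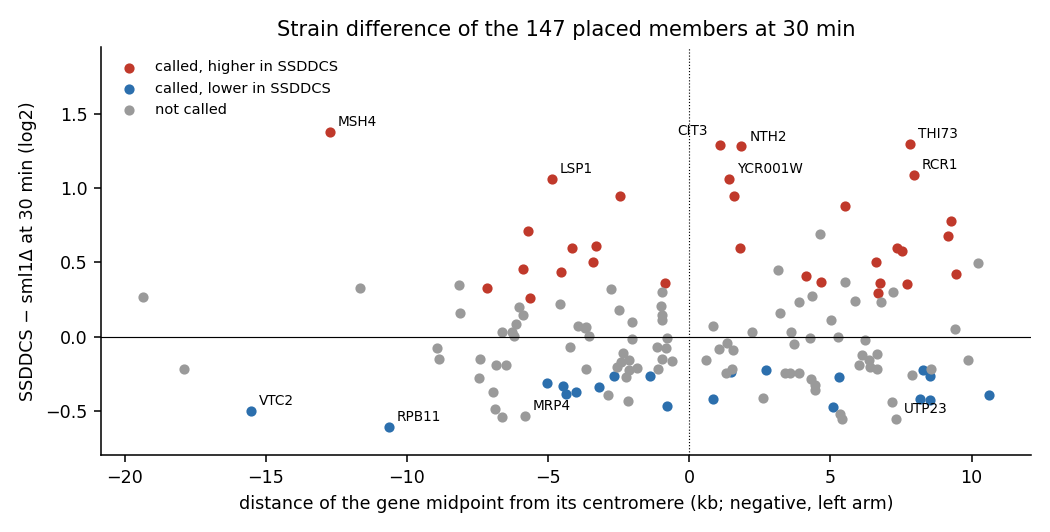
Difference between SSDDCS and sml1Δ at 30 min (log2) against the distance of the gene's midpoint from its centromere (kb, left arms negative) for the 147 placed genes; red, called higher in SSDDCS; blue, called lower; gray, not called. Called genes of both directions stand on both arms, and those above 1 on the log2 scale lie between 1.09 and 12.7 kb.

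The 16 centromeres differed in how many neighbours were called. At 30 min 6 of 9 genes were called around CEN13, 6 of 10 around each of CEN6 and CEN16, and 1 of 10 around each of CEN8 and CEN9. The median difference was highest around CEN16 (0.47) and lowest around CEN6 (-0.25) and CEN5 (-0.24). Around CEN6, 5 genes fell and 1 rose, while around CEN13 and CEN16 5 rose and 1 fell. With 6 to 10 genes a centromere, these are descriptions with no test. The share of all genes called at this time was 31.2%.

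**Figure D5:**
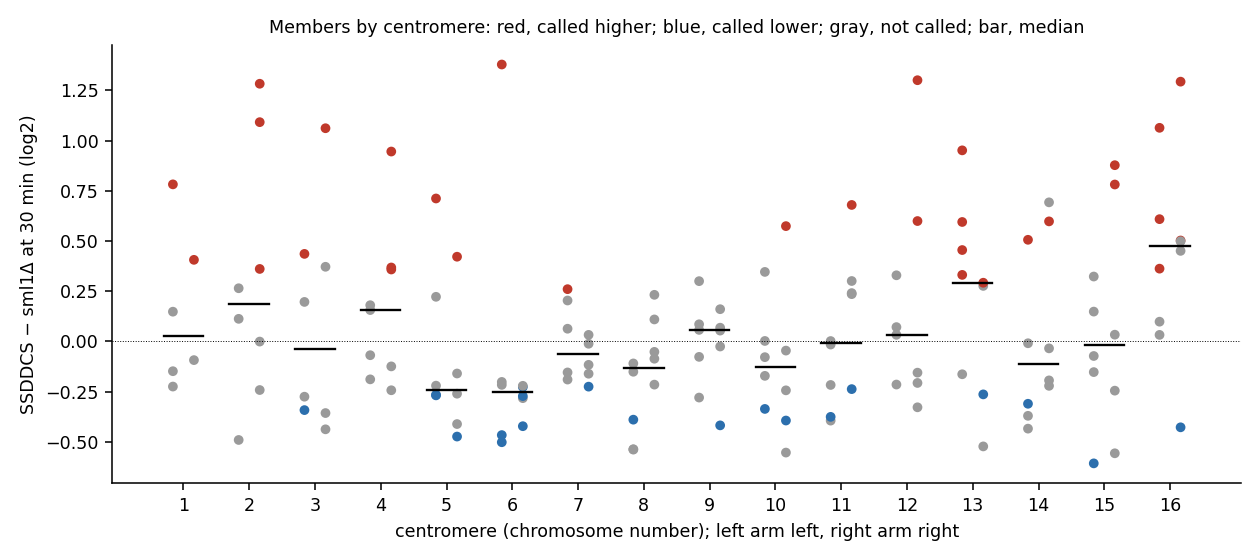
Difference between SSDDCS and sml1Δ at 30 min (log2) for each of the 149 genes, by centromere (left arm to the left, right arm to the right); red, called higher in SSDDCS; blue, called lower; gray, not called; bar, median. Medians run from -0.25 at CEN6 to 0.47 at CEN16.

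The TRP1 marker locus, where SLD2 and DPB11 were integrated in SSDDCS, is 12.4 kb from CEN4, and all 9 genes around that centromere lie within 20 kb of it. MAF1, the nearest, is 3.74 kb away and differed by 0.36 at 30 min. NTH1 and RCR2 were also called there and the other 6 were not. None of the 9 was called over the course. The LEU2 locus, where SLD7 and CDC45 were integrated, is 22.6 kb from CEN3, and 8 genes around that centromere lie 15.6 to 28.5 kb from it. At 30 min 3 of these were called, YCL002C (-0.34), PGS1 (0.44) and YCR001W (1.06), and over the course YCR001W (0.51, adjusted p = 0.00789). Whether either insertion bears on these values was not tested. The shares of all genes called were 31.2% at 30 min and 7.12% over the course.

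Some neighbouring genes moved in the same direction, and the run described here was picked after the values were seen. How often such runs occur among all genes was not counted. On the left arm beside CEN13, 4 consecutive genes rose at 30 min: VRL1 (0.95), YML003W (0.59), GLO1 (0.45) and TRM12 (0.33). With quantile normalization YML003W (adjusted p = 0.981) and TRM12 (0.0373) were not called. VRL1 (YML002W, chromosome XIII, 264541 to 266754), an endosomal protein, had 510, 572, 466 and 561 normalized read counts in SSDDCS and 278, 273, 262 and 272 in *sml1Δ* (difference 0.95, SE 0.11, adjusted p = 1.96e-11). The other 3 genes of the run were not called over the course, where their differences were 0.14, 0.17 and 0.09.

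Of 118 pairs of adjacent genes that both belong to the set, 9 changed in the same direction at 30 min (7.63%) and 6 in opposite directions (5.08%). Among all 5689 adjacent pairs of the annotation, 7.95% moved in the same direction and 3.3% in opposite directions. Pairs that are transcribed away from each other share an upstream region. In 3 of 33 such pairs both genes rose or both fell (9.09%, all divergent pairs 8.86%): LSP1 with ULA1, GPI18 with RCR1, and GLO1 with YML003W.

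The upstream regions of the first 2 of these pairs are printed, as the 300 bases before the start codon of ULA1 and of RCR1. Both hold a match to a motif searched. The 300 bases before YML003W, of the pair GLO1 with YML003W, held no match and are not printed, although both genes of that pair also rose. A region before YSP3, a subtilisin-like protease gene that differed by 0.88, is added because it holds a meiotic motif. Sequences are from RefSeq's R64 assembly, chosen after the values were seen, with motif matches in capitals.
ULA1, chrXVI:551720-552019 (plus strand): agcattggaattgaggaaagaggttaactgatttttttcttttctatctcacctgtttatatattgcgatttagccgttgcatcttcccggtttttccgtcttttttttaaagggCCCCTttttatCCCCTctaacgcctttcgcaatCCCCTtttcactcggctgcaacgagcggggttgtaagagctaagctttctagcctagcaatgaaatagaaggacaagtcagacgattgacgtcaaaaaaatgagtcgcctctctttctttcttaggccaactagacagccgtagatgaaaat
RCR1, chrII:245606-245905 (plus strand): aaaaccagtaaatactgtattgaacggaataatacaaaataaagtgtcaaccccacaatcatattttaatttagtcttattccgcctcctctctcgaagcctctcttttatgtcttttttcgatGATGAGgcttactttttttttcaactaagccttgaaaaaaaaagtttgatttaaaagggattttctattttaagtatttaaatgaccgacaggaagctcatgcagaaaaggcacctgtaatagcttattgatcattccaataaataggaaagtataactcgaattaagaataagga
YSP3, chrXV:331155-331454 (plus strand): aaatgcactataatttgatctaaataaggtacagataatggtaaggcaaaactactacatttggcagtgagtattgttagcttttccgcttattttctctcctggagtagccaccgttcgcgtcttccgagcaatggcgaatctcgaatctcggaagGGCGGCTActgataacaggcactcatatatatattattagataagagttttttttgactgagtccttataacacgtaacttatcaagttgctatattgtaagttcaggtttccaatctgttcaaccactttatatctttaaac
The motifs searched, on both strands, were the stress response element (AGGGG), the PAC motif of ribosome biogenesis genes (GATGAG), the URS1 core of early meiotic genes (TAGCCGCC) and the MCB of G1/S genes (ACGCGT). LSP1, an eisosome protein of the plasma membrane, and ULA1 lie 362 bases apart, with 3 stress response elements that begin 185, 174 and 152 bases before ULA1. RCR1 and GPI18, which acts in GPI anchor synthesis, lie 238 bases apart with a PAC match 176 bases before RCR1, and the printed region runs into GPI18. YSP3 has the URS1 core 143 bases before its start.

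As a description over 300-base regions, the stress response element stood before 8 of 31 genes that rose at 30 min (25.8%), 5 of 20 that fell (25%) and 22.3% of all 5837 genes. PAC stood before 4 of 31 that rose, 4 of 20 that fell (among them NOP16 and LOC1) and 19% of all. URS1 stood before 2 of 31 that rose (6.45%), YSP3 and YKR005C, before none of the 20 that fell and before 1.27% of all. It also stood before 2 of the 96 not called (2.08%). MCB stood before none of the genes that rose or fell and before 3.51% of all. MSH4 had no match to any of the 4.

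The genes that rose had lower levels per length than those that fell. Over the course in *sml1Δ*, the median level per kb of gene was 224 normalized read counts in the 32 that rose at 30 min, 1122 in the 20 that fell and 584 in the 97 not called. All other genes showed the same order, with 191, 686 and 525. Genes next to centromeres lay nearer to an annotated origin than other genes (median 5.95 kb against 11.3 kb). The median distance to an origin was 2.47 kb in those that rose, 6.76 kb in those that fell and 6.34 kb in those not called. All other genes had the same order here too, with 7.98, 16.6 and 11.2 kb.

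The genes that build the kinetochore lie elsewhere in the genome. Of 21 measured genes on a list of inner kinetochore and Cse4 chromatin genes, 3 rose (14.3%, all genes 16.9%) and 4 fell (19%, all genes 14.3%) at 30 min, with a median of -0.16. MIF2, the homolog of CENP-C, differed by 1.02 and SCM3, the chaperone of Cse4, by 0.76, while CBF1, which binds CDEI, differed by -0.50 and AME1 of the COMA complex by -0.34.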

How the data were processed

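RNA-seq was measured in 94 libraries of 24 strain-by-time groups. The labels name the replicates but not how the cultures were started, so p-values measure the spread between these samples. Per the paper and labels, the authors mapped reads to the S288C R64-2-1 genome (sacCer3) with bowtie2 (the submitters' notes name TopHat2, version 2.0.6), counted them per gene and deposited 1 signal value per gene and library, the read count divided by a DESeq2 size factor (0.722 to 1.95). The strand was not stated to be used. Recovered reads were whole for 100% of values within 0.0001. The table's 96 columns include 2 that matched no sample and were not used. Of 138 pairs of replicate libraries none agreed within sampling noise (lowest chi-square per degree of freedom 10.6).

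Values were tested as log2(value + 1) with limma (version 3.58.1, R 4.3.3), differences being SSDDCS minus *sml1Δ* on that scale, which understates low genes. The filter kept the 6414 genes whose mean reached 10 and left out 30. Time points came from 1 fit to all libraries, and the course from the 8 culture means over the 11 time points all cultures have (25 min left out). The fit to all libraries also gave the strain-by-time test and treats libraries of 1 culture as independent. Two-sided p-values were adjusted over all genes by the Benjamini-Hochberg method and called under 0.01, the limit of the study. The 6 over-expressed and 4 marker genes were left out of counts over genes. Replicate numbers may pair the cultures, which the labels do not state. Deviations of same-numbered culture means from their strain's mean correlated at 0.688, 0.346, 0.317 and 0.202 over genes, all above 0.1. Of the other pairings SSDDCS replicate 3 with *sml1Δ* replicate 4 reached 0.430, above the same-numbered values of replicates 3 and 4. The main fits use no pairing, and the replicate block was run as an alternative.

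The genes, role lists and tests were chosen with earlier results of these data known. The text names up to 8 genes of each sign called over the course and 5 at 30 min (mean of at least 50, no overlap), up to 2 of each role list, the extremes of the genes numbered 001 and called kinetochore genes. Other genes were picked after their values were seen. Alternatives were a pseudocount of 0.1 or 5, testing without the filter, scaling to equal totals, quantile normalization, a replicate block, edgeR (4.0.16) and DESeq2 (1.42.0) on the recovered reads, a correlation between libraries of 1 culture (0.377), each time point alone, early or late time points, leaving out cultures, and other choices of genes. On data simulated over 6414 genes, the time course fit recovered 99% of genes changed by 0.5 on the log2 scale and the 30 min fit 34%, or 95% of those changed by 1. These shares hold for the simulated spread, which need not match that between the cultures. In the data not every gene with such a difference was called over the course: CIT3 (0.66) and CIT2 (-0.66) were not.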

Additional observations from a re-analysis of the deposited data

Results flagged for a closer look

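In 6 of 90 sets of 4 values tested, 1 value stood far from the other 3, and chance alone gives about 1 in 20. The median depth of replicate 1 was 15435400 reads a library in SSDDCS and 20480400 in *sml1Δ*, above the other 3 cultures of each strain. At 30 min NTH2 was lowest in SSDDCS replicate 3, with 1292 normalized read counts, and LOC1 was lowest in SSDDCS replicate 1, with 610. Over the course, the *sml1Δ* culture mean of replicate 2 stood apart for SWD1 (432) and for CIT2 (1507).

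The strain difference changed over the 12 time points by the limma F-test for 7 of the 10 genes named by their difference at 30 min. These genes were chosen for that difference in the same libraries, so a high share was built in by the choice. Of the 52 genes next to centromeres called at 30 min, 34 passed this test, and of all genes 22.2%. The adjusted p was 6.39e-05 for MSH4, 5.55e-10 for THI73, 1.1e-08 for NTH2, 6.3e-06 for RCR1, 2.06e-11 for RPB11, 0.00472 for AIM45 and 0.00977 for LOC1.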

How the results depend on the processing

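The count over the course (10) was 27 with DESeq2 (18.1%, all genes 18.2%) and 18 over 20 to 60 min only (12.1%, all genes 12.1%). It was 0 in limma over G1 to 15 min only (15 at an unadjusted p under 0.05). As the mean of the 12 differences in the fit to all libraries it was 91 (61.1%, all genes 58.5%). That fit also gave the main calls at each time point and by strain and time. It treats libraries of a culture as independent. The count at 30 min (52) was 26 in a fit to that time point alone (17.4%, all genes 18.9%), and the 12 time points summed to 87 in place of 229. The strain-by-time count (39) was 66 with a correlation between libraries of 1 culture (44.3%, all genes 42.3%). Of 326 genes with midpoints within 20 kb of a centromere, 27 were called over the course, 106 at 30 min and 73 by strain and time, with 485 calls summed. Among all genes the shares called over the course, at 30 min and by strain and time were 7.12%, 31.2% and 22.2%. The median difference over the course (-0.0053) was 0.026 with equal library totals and 0.0267 over G1 to 15 min only. Leaving out 1 culture gave 0 to 7 calls over the course, 39 to 59 at 30 min, 20 to 34 by strain and time, 156 to 222 summed, and medians of -0.016 to 0.0161. Without the 50 and 60 min libraries of *sml1Δ* replicate 4 there were 36 by strain and time and 226 summed. The replicate block gave 9 over the course (6.04%, all genes 7.03%) and 66 at 30 min (44.3%, all genes 39.8%). It gave 56 by strain and time (37.6%, all genes 35%) and 321 summed. Outside the course it removed no call: it added 14 at 30 min, 78 at the other time points and 17 by strain and time. Among genes named by rule, those that changed sign over the course were not called over it: DOM34 became 0.0225 with equal totals, 0.0202 with quantile normalization, 0.0141 with edgeR and 0.0101 with DESeq2; NUP60 -0.0048 in the fit to all libraries and -0.0435 over 20 to 60 min; LOC1 0.0267, SWD1 -0.0316 and RPL14B 0.0046 over G1 to 15 min. Without 1 culture NUP60 ran from -0.0257 to 0.0441 and DOM34 from -0.0405 to 0.0449. Causes were not tested. The lowest mean level among these genes was 37.2 normalized read counts.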
